A study of Mus musculus with 4 samples.

Results

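Long intergenic noncoding RNA (lincRNA) genes give rise to long transcripts that are not annotated as coding for a protein and lie between the protein-coding genes. The genes described here were the autosomal genes of type lincRNA in the GENCODE vM1 annotation of the mm9 mouse genome that overlapped no gene of type protein_coding on either strand. This rule kept 496 of the 1232 autosomal lincRNA genes, out of 34653 autosomal genes of all types. The other 736 autosomal lincRNA genes overlapped a protein-coding gene and served only for comparison, and 27 genes of the X and Y chromosomes that met the rest of the rule were set aside. The 496 genes were 583 bp to 425.6 kb long, with a median of 7871 bp, and spanned 11.4 Mb together.

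H3K36me3, trimethylation of histone H3 at lysine 36, was mapped by ChIP-seq of MNase-digested chromatin from spermatocytes at 14 days post-partum (dpp). The first strain was C57BL/6J, called B6. The second, called KI, was the knock-in strain labelled B6.Cg-Prdm9<tm1.1Kpgn>/Kpgn, which has the B6 background and carries, in place of exon 11 of Prdm9, the zinc finger exon of the Cst allele. The biological replicates of each strain were merged by the authors before peaks were called against an input labelled 15 dpp, so each strain has 1 list of broad regions and 1 list of refined (narrow) peaks. No value therefore has a replicate error, no test between strains was possible, and the 95% Wilson intervals given below cover only the number of genes or peaks counted. The lists give positions alone, with no reads, height or score, so the depth behind a region is unknown. On the autosomes 54236 refined peaks were called for B6 and 68189 for KI.

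In somatic and germ cells, SETD2 travels with elongating RNA polymerase II and deposits H3K36me3 along the bodies of transcribed genes, with little of the mark at promoters. In meiotic cells PRDM9, a methyltransferase that binds DNA through its zinc fingers, places H3K4me3 and H3K36me3 on the nucleosomes of recombination hotspots. LincRNA transcripts are made by the same polymerase and are capped, spliced and polyadenylated, and the testis is known for expressing many of them.

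The labelled cell type was compared with its markers by the share of each gene in broad regions. All 10 meiotic germ cell genes, among them Sycp3, Dazl and Dmc1, were covered over at least 50% of their length in both strains, with 82.4 to 99.97% in B6 and 77.4 to 99.97% in KI. The 5 Sertoli cell genes, markers of the somatic nurse cells of the tubule, lay between 5.19 and 71.7% in B6 and between 0 and 8.49% in KI, so that 1 gene reached 50% in B6 and 0 did in KI. Among 5 Leydig cell genes only Star and among 4 blood cell genes only Cd68 reached 50%, both at 100% in the 2 strains. Of the others, Cyp17a1, Hsd3b1, Insl3, Hbb-b1 and Lyz2 were at 0 in both strains. Cyp11a1 had 0% in B6 and 1.51% in KI, and Ptprc had 2.22 and 2.67%. The material was bulk chromatin, so fewer cells of a type and less of the mark per cell cannot be told apart.

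The gene type was also compared with the RefSeq catalogue of a later assembly (GRCm38.p6), used for names only. By current or older symbol 338 of the 496 genes were matched, and RefSeq lists 309 of them as lncRNA. The annotation and RefSeq differed for 13 genes that RefSeq lists as protein_coding, such as Tdrd5, Ttc28 and Nlrc5, and for 11 listed as pseudogenes or transcribed pseudogenes, such as Atp10d and Ppp4r1l-ps. They stayed in the set because they met the rule.

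Several stretches of mm9 sequence illustrate the features that the following results turn on, namely refined peaks called in 1 strain only, a refined peak called in both, and gene starts with many or few CpG dinucleotides. All are 300 bases long, written 5′ to 3′, with each CG in capitals. The first is the middle of the KI peak with no B6 region that spans the end of Gm17694 (chr9:88778459-88778758, plus strand), which falls just past the annotated end and holds 1 CpG and 37% G and C.
Gm17694: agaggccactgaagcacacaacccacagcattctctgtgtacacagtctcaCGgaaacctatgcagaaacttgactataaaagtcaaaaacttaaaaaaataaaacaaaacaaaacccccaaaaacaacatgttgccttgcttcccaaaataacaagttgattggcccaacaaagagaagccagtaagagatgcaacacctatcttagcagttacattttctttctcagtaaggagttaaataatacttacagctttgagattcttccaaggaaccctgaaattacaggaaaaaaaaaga
The next 2 are the middle of an intronic KI peak with no B6 region in Gm16630 (chr6:48185409-48185708, plus strand), with 12 CpG, and the middle of the stretch shared by a B6 and a KI peak in Snhg1 (chr19:8798674-8798973, plus strand), with 2 CpG.
Gm16630: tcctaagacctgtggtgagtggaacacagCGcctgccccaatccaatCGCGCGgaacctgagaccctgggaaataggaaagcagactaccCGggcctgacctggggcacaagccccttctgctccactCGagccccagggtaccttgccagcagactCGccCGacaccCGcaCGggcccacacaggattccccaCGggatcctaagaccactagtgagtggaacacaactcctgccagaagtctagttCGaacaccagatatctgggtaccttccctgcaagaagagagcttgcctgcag
Snhg1: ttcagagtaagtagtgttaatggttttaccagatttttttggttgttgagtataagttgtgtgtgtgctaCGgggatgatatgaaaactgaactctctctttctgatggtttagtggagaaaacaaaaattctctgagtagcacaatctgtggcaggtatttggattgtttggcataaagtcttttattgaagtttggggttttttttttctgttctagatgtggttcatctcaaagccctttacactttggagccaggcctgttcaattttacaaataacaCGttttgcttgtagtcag
The last 2 run from 250 bases before to 50 bases after the annotated start of 2 genes with many bases in broad regions, both transcribed pseudogenes in RefSeq. The start of Atp10d (chr5:72594318-72594617, plus strand) holds 14 CpG, or 0.50 of the number its base composition would give, and that of Ppp4r1l-ps (chr2:173485092-173485391, minus strand) holds 27, or 0.72 of that number.
Atp10d: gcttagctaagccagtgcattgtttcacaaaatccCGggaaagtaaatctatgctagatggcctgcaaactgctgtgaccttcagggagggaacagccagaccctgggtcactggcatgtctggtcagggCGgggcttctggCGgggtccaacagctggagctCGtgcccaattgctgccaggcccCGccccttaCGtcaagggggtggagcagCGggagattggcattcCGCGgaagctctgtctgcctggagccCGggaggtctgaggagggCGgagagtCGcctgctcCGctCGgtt
Ppp4r1l-ps: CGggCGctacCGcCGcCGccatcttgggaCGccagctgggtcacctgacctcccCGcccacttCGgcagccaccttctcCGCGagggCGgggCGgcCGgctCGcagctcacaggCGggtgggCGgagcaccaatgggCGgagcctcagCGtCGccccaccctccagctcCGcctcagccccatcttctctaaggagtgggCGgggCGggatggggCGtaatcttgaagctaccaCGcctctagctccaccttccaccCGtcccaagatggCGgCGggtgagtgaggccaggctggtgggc

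About 1 lincRNA gene in 5 lay mostly within broad H3K36me3 regions, in both strains. In B6, 97 of the 496 genes (19.6%, interval 16.3 to 23.3%) were covered over at least 50% of their length by merged broad regions, against 35.3% of all autosomal genes. In KI the number was likewise 97 (19.6%), against 33.9% of all autosomal genes. Both lists met the 50% limit at 84 genes (16.9%, interval 13.9 to 20.5%), against 32.3% of all autosomal genes. In B6 only, 13 genes met it (2.62%), against 2.97% of all autosomal genes, and in KI only 13 (2.62%), against 1.64%. The share past the limit within a strain was thus lower among lincRNA genes than in the whole annotation. It was also lower than among protein-coding genes, of which 43.2% in B6 and 41.6% in KI met the limit.

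Most of the remaining lincRNA genes had no broad region at all. In B6, 280 genes (56.5%) were at 0 and in KI 270 (54.4%), with 235 (47.4%) at 0 in both, and the median share was 0 in each strain. All autosomal genes were near this, with 51.9% at 0 in B6, 50.8% in KI and 47.0% in both, and medians of 0. The upper part of the distribution differed. The upper quartile was 35.2% in B6 and 32.5% in KI, against 88.4 and 84.5% over all autosomal genes. The 90th percentile was 80.9 and 80.8%, against 99.2 and 98.8%. Coverage over at least 90% of the gene was found for 33 lincRNA genes in B6 and 34 in KI, and over the whole gene for 14 and 16. These counts were not made for all autosomal genes. As a group the lincRNA genes had 15.0% of their span in broad regions in B6 and 14.8% in KI, between the 38.7 and 35.7% inside protein-coding genes and the 3.59 and 4.28% outside all genes.

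The lincRNA genes that overlap protein-coding genes stood closer to the latter, with 37.5% at or over the limit in B6 and 35.7% in KI. Genes of type processed_transcript, which include other noncoding transcripts such as Malat1 and H19, stood closer to the intergenic lincRNA genes, at 21.2 and 20.4%.

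**Figure D1:**
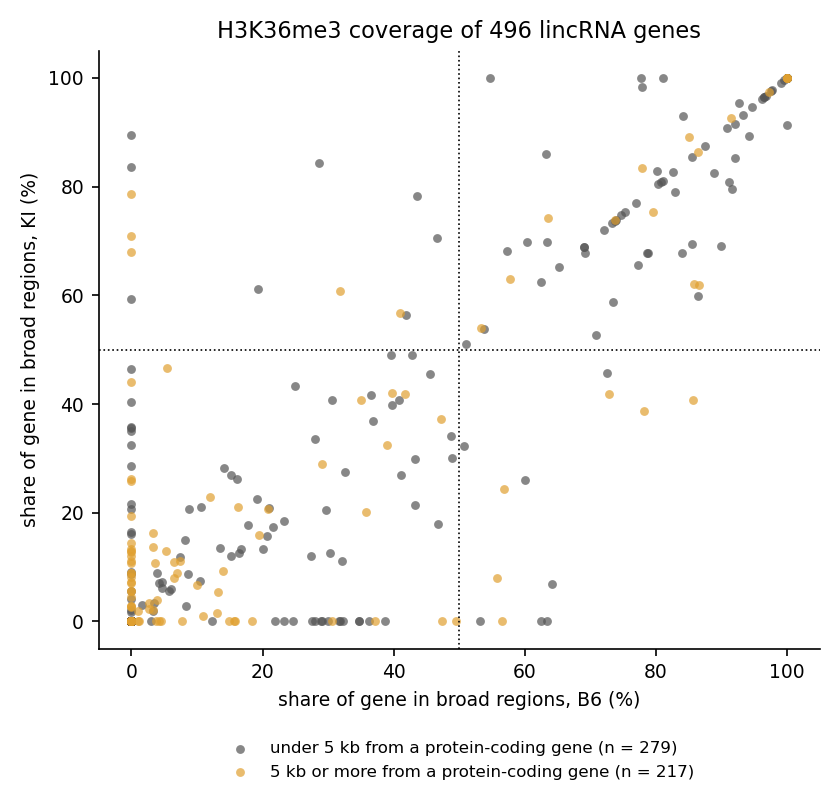
Each point is 1 of the 496 lincRNA genes, placed by the share of its length in broad regions in B6 (x axis, %) and KI (y axis, %), with the distance to the nearest protein-coding gene by colour and dotted lines at 50%. Of the genes, 235 lie on top of each other at 0 in both strains, 84 lie in the upper right and 13 in each of the other corners past 1 line.

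The comparison depended on gene length. The lincRNA genes were covered more often than protein-coding genes only under 2 kb, about as often from 2 to 5 kb, and less often from 5 kb up. Under 2 kb, 11 of 48 lincRNA genes (22.9%, interval 13.3 to 36.5%) met the limit in B6, against 10.7% of protein-coding genes. From 2 to 5 kb it was 39 of 129 (30.2%) against 33.8%, where the interval for the lincRNA genes, 23.0 to 38.6%, includes the protein-coding value. From 5 to 20 kb the share was 15.3% of 189 against 48.8%, and from 20 to 100 kb 16.5% of 109 against 57.8%. None of the 21 lincRNA genes of 100 kb or more met it (interval 0 to 15.5%), against 36.9%. KI gave a like series, with 25, 30.2, 15.3, 15.6 and 0% from the shortest to the longest class.

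**Figure D2:**
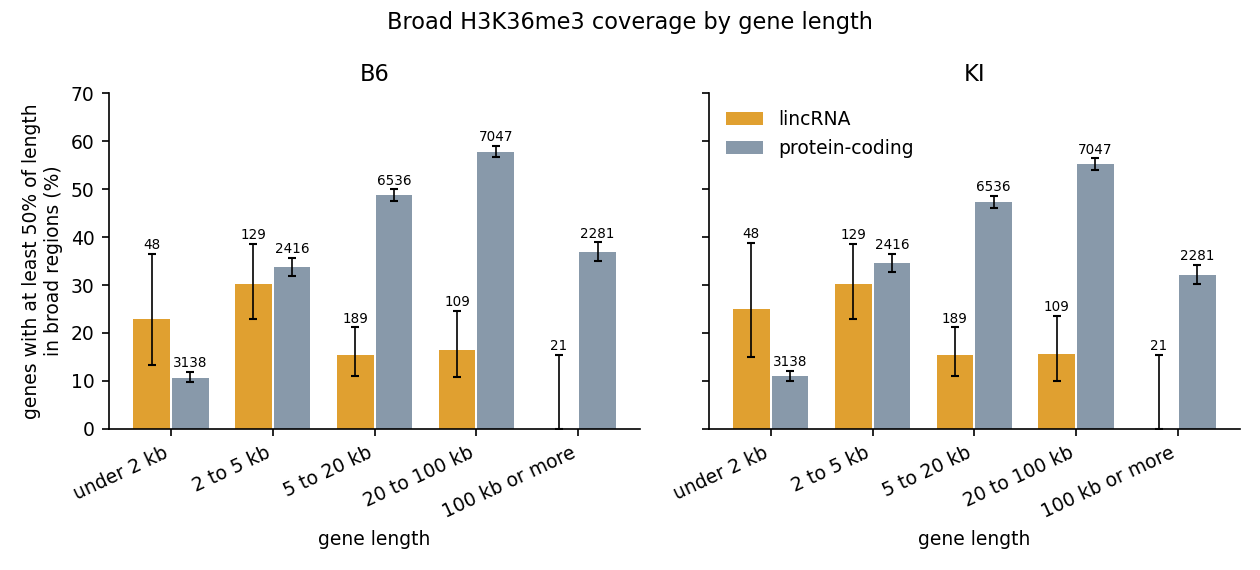
Bars give the share of genes (%) covered by broad regions over at least 50% of the gene, by gene length class, for lincRNA and protein-coding genes in B6 (left) and KI (right); lines are 95% Wilson intervals and the numbers above are genes per class. The lincRNA bars are above the protein-coding bars only under 2 kb, and from 5 kb up they are lower by more than the intervals.

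The longest lincRNA genes were instead covered in small part, which was seen in most of them. Of the 21 genes of 100 kb or more, 16 in B6 and 18 in KI had a broad region, with a median share of 3.21% in B6 and 2.92% in KI. Most protein-coding genes of that length had a broad region as well. Only 11.1% of them in B6 and 7.15% in KI were at 0, and their medians were 15.9 and 11.2%. The highest share among the 21 lincRNA genes was 39.8% in B6 and 42.0% in KI, for 2610035D17Rik.

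Lying near a protein-coding gene went with coverage. Of 279 lincRNA genes less than 5 kb from the nearest protein-coding gene, 75 in B6 (26.9%, interval 22.0 to 32.4%) and 76 in KI (27.2%) met the 50% limit. At 5 kb or more it was 22 of 217 in B6 (10.1%, interval 6.79 to 14.9%) and 21 in KI (9.68%), with 16 in both strains. The 61 genes at 50 to 200 kb gave 4 in B6 and 1 in KI, and the 11 genes at 200 kb or more gave 0 in both, with an upper Wilson bound of 25.9%.

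The state of the neighbour went with it as well. Within 5 kb, 34.6% of the 185 lincRNA genes whose neighbour was covered over at least 50% met the limit in B6 (interval 28.1 to 41.7%), against 11.7% of the 94 others (6.66 to 19.8%). In KI the shares were 38% of 171 and 10.2% of 108. Some of the broad regions covering lincRNA genes also touched protein-coding genes, and the neighbour comparison was not repeated without them. Once broad regions that touch a protein-coding gene were left out, 29 of the 97 genes in B6 and 24 of the 97 in KI lay under 50%, and 68 and 73 still met the limit.

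Arrangement differed too. Most close neighbours were head to head, that is, on opposite strands with their starts facing each other, as in 225 of the 279 genes within 5 kb. Of these, 23.6% in B6 (interval 18.5 to 29.5%) and 24.0% in KI met the limit. The 29 genes lying tail to tail, with ends facing, gave 14 in each strain, or 48.3% (31.4 to 65.6%). Within 1 kb, 7 of 11 tail to tail genes met it in each strain, against 51 of 203 head to head genes in B6 and 54 in KI. The tail to tail genes were also shorter, with a median of 4126 bp against 7285 bp head to head within 5 kb, and the part of length in these counts was not tested.

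Genes with CpG-rich starts were covered more often. A start window of 300 bases was called CpG-rich where CpG reached 0.6 of the number given by base composition and G and C reached 50% of bases. Such a window was found in 255 of the 496 lincRNA genes (51.4%), against 42.8% of protein-coding genes. Most of these lay near a protein-coding gene. Under 5 kb from one, 207 of 279 lincRNA genes had a CpG-rich start. At 5 kb or more 48 of 217 did, a lower share than among protein-coding genes. Of the CpG-rich group 75 genes met the 50% limit in each strain (29.4%, interval 24.2 to 35.3%), and of the 241 CpG-poor genes 22 did (9.13%, 6.11 to 13.4%). The order was the same at 5 kb or more from a protein-coding gene, where 11 of 48 CpG-rich genes (22.9%) met the limit in each strain against 6.51% of 169 CpG-poor genes in B6 and 5.92% in KI. Ppp4r1l-ps, whose start is printed above, was CpG-rich by this measure, whereas Atp10d was CpG-poor, and RefSeq lists both as transcribed pseudogenes.

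Coverage also varied with the kind of gene name. Genes known only as Gm models, which are placeholder names, met the limit in 31 of 243 cases in each strain (12.8%). Among genes named after RIKEN cDNA clones, the share was 26.1% of 69 for clones from testis libraries (18 genes, interval 17.2 to 37.5%) and 24.5% of 147 for the other clones (18.2 to 32.0%), with intervals that overlap over most of their range. Manual and automatic annotation gave near equal shares, with 19.7% of 173 and 19.5% of 323 in B6.

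**Figure D3:**
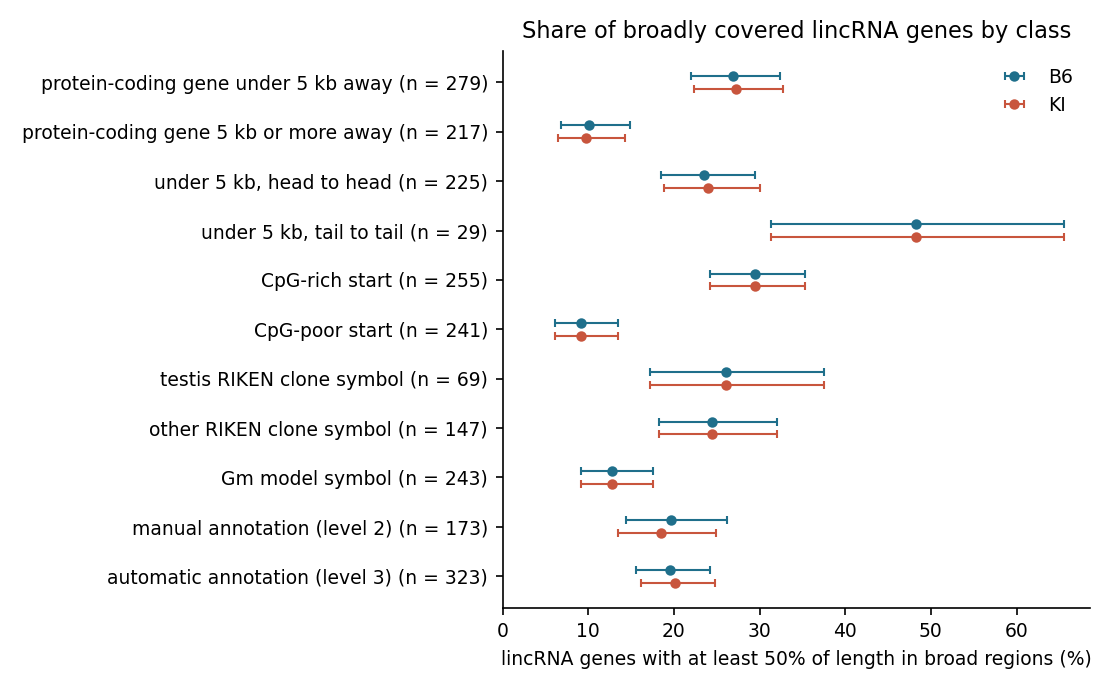
Points give the share of lincRNA genes (%) covered by broad regions over at least 50% of the gene, by class, in B6 and KI, with 95% Wilson intervals and the genes per class in the labels. The shares are highest for tail to tail genes within 5 kb (48.3%) and lowest for CpG-poor starts (9.13%) and genes 5 kb or more from a protein-coding gene (10.1 and 9.68%).

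Within the covered lincRNA genes the start mostly lay outside broad regions, as in covered protein-coding genes. The mean coverage of the 3′ part was lower than in the latter, though not the median. These genes were chosen for their coverage, so the values are a description. Among the 40 genes of at least 5 kb that met the limit in both strains, the 5′ part, when the gene is split into 3 equal parts, was covered over a mean of 76.6% in B6 and 73.1% in KI. The middle part had 92.4 and 89.9%, and the 3′ part had 87.1 and 84.6%. The 500 bp on either side of the start had only 13.7 and 17.3%. The 7567 protein-coding genes chosen the same way gave 78.1, 96.2 and 96.6% for the parts in B6, and 10.6% around the start. The median of the 3′ part was 100% in both sets of genes and in both strains. In B6 the 3′ part was covered over at least 50% in 37 of the 40 lincRNA genes (interval 80.1 to 97.4%), against 98.1% of the protein-coding genes. Of all lincRNA genes past the limit, the start base itself lay in a broad region for 15 of 97 in B6 and 19 of 97 in KI.

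The upstream side was covered much as in protein-coding genes, while the gene body and the stretch past the end were covered less. Over all 319 lincRNA genes of at least 5 kb, mean coverage in B6 was 32.9% midway into the upstream flank and 7.02% just before the start. It was 17.8% just before the end and 17.4% just past it. In 15864 protein-coding genes the same places had 29.4, 10.5, 56.4 and 50.9%. In windows as long as the gene itself, the upstream side of the lincRNA genes had a mean of 25.7% in B6 and 24.6% in KI, and the gene 21.0 and 20.8%. At 5 kb or more from protein-coding genes the gene had 11.6 and 11.8%, and the upstream window 8.93 and 11.0%, so that the upstream excess was not seen there.

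**Figure D4:**
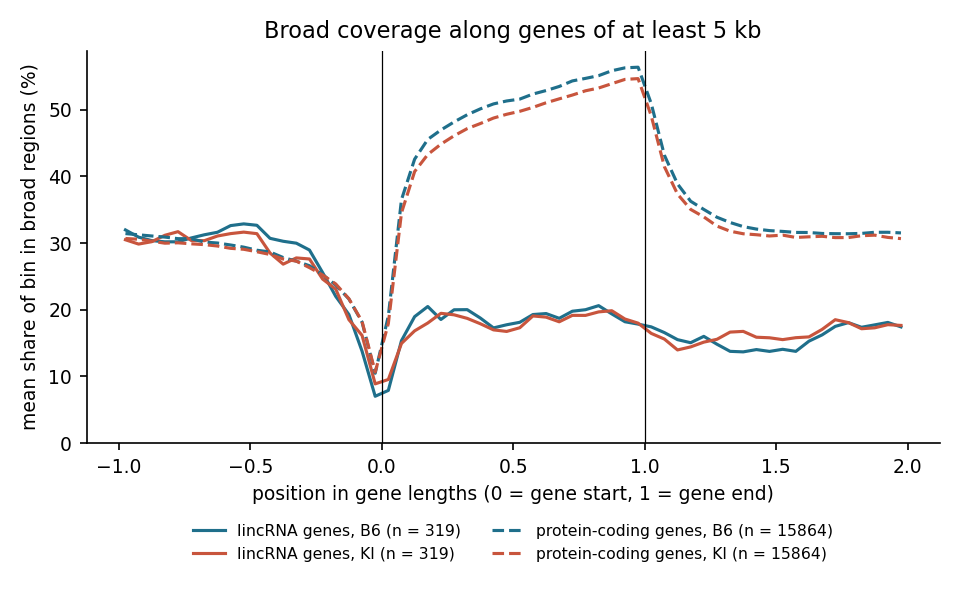
Lines give the mean share of each bin in broad regions (%) along genes of at least 5 kb, with position in gene lengths from the start (0) to the end (1) and 1 gene length on either side, for lincRNA (solid) and protein-coding genes (dashed) in B6 and KI. All 4 lines dip at the start, to 7.02% for lincRNA genes in B6 and 8.88% in KI, and the lincRNA lines stay near 20% or less inside the gene where the protein-coding lines climb past 50%.

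Several long noncoding RNAs with known roles were among the lincRNA genes. A list of 59 such symbols contained 13 of the genes described here, and 7 of them met the 50% limit in each strain, namely Tug1, Dleu2, 1700020I14Rik and 4 snoRNA host genes. Tug1 (chr11:3539797-3548815, minus strand), which mice need for male fertility, was covered over 96.5% in both strains, also when regions touching protein-coding genes were left out. Its 1 refined peak in each strain overlapped that of the other.

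The snoRNA host genes Snhg1, Snhg5, Snhg7 and Snhg12 had 100, 100, 100 and 82.6% in B6 and 100, 100, 91.4 and 82.6% in KI. Snhg5 (chr9:88415894-88417721, minus strand) lies 25.1 kb from its nearest protein-coding gene. For Snhg1, Snhg7 and Snhg12, and likewise for 1700020I14Rik, the Cyrano transcript (96.5% in both strains), the covering regions also touched a protein-coding gene and coverage without such regions was 0. Dleu2 (chr14:62238318-62301162, minus strand), which hosts the miR-15 and miR-16 cluster, was covered over 91.5% in B6 and 92.6% in KI.

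The 3 transcripts of the imprinted Dlk1-Dio3 region had low shares. Meg3 (chr12:110779211-110809936, plus strand) had 6.51% in B6 and 7.93% in KI. Rian had 21.6 and 17.3%, with 5 and 4 refined peaks of which 2 in each strain overlapped. Mirg had 19.4 and 16%. Miat and Rmst, known from neural tissue, were at 0 in both strains, and Pvt1, the long gene downstream of Myc, was at 0 in B6 and 2.65% in KI with 3 refined peaks in KI.

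The largest covered stretches belonged in part to genes whose type is in doubt. Of the 10 genes with most bases in broad regions in the strain where it was smaller, RefSeq lists 4 as lncRNA, 3 as protein_coding and 2 as transcribed pseudogenes, and 1 had no match. Atp10d (chr5:72594568-72690014, plus strand), related to a phospholipid-transporting ATPase, had 87.5 kb in B6 and 76.0 kb in KI, which is 91.7 and 79.6% of the gene. Without regions touching protein-coding genes the share of Atp10d was 16.2% in B6 and still 79.6% in KI. Ppp4r1l-ps (chr2:173404821-173485141, minus strand) had 74.0 and 73.5 kb, or 92.1 and 91.5%. Tdrd5 (chr1:158185426-158233795, minus strand), a Tudor domain gene of the germline piRNA pathway that RefSeq lists as protein_coding, had 97.3% in both strains. Ttc28 (chr5:111308822-111718800, plus strand), also protein_coding in RefSeq, had 66.8 kb in B6 and 86.0 kb in KI, which is only 16.3 and 21.0% of its length.

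Other genes of this group are lncRNA in RefSeq or had no match. 1600020E01Rik (chr6:86476265-86514436, plus strand), head to head with Pcbp1 at 99 bp, was covered over 96.8% in both strains. Gm2694 (chr8:89996711-90049453, plus strand), head to head with Cbln1 at 202 bp, had 90% in B6 and 69.1% in KI, while Cbln1 itself was at 0 in both. 2610035D17Rik (chr11:112905209-113063152, minus strand) had 39.8 and 42.0% of its 157.9 kb. Gm16899 (chr1:7339487-7387882, minus strand), without a RefSeq match, had 79.6 and 75.4% although the nearest protein-coding gene lies 175.8 kb away.

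Refined peaks met lincRNA genes about as often as other genes. At least 1 refined peak, with an overlap of 1 bp or more, was found in 172 lincRNA genes in B6 (34.7%, interval 30.6 to 39.0%), against 35.9% of all autosomal genes, and in 174 in KI (35.1%, 31.0 to 39.4%), against 37.9%. In both strains 132 genes had one (26.6%, 22.9 to 30.7%), against 31.5%. Most had few: 106 genes in B6 and 98 in KI had 1 peak, and 43 and 51 had 3 or more. Since each of these peaks lies in a broad region, a gene without a broad region cannot have one. Of the genes past the 50% limit, 72 of 97 in B6 and 67 of 97 in KI had a refined peak, and of those covered in part but under the limit 100 of 119 and 107 of 129 had one.

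Refined peaks in lincRNA genes numbered 412 for B6 and 450 for KI, which is 36.1 and 39.4 per Mb. Protein-coding genes held 43.9 and 53.0 per Mb, and the space outside all genes 7.78 and 11.3. The peaks were spread over the gene body: 25.5% in B6 and 21.1% in KI overlapped an exon by at least 1 base. Exons make up 9.69% of the bases of the span, which is not a share of peaks, so the values cannot be compared directly. The middle of 6 peaks in each strain lay within 1 kb of the gene start, a count that was not made for other genes. The median width of the peaks in lincRNA genes was 312 bp in B6 and 315.5 bp in KI, near the 316 and 323 bp inside protein-coding genes.

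A set of 98 B6 peaks in lincRNA genes (23.8%, interval 19.9 to 28.1%) overlapped a KI refined peak, and 98 KI peaks (21.8%, 18.2 to 25.8%) overlapped a B6 one. Inside protein-coding genes these shares were 19.1 and 15.8%, and outside all genes 12.2 and 8.52%. No region of the other strain, broad or refined, was met by 159 B6 peaks (38.6%, 34.0 to 43.4%) and 172 KI peaks (38.2%, 33.9 to 42.8%). Inside protein-coding genes the same shares were 37.1% for B6 but 19.2% for KI, and outside all genes 66.0 and 70.1%. The lincRNA genes were thus nearer to protein-coding genes for the B6 peaks, and between genes and intergenic space for the KI peaks.

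These peaks are set out here by how covered the gene was, as a description, because the split bears on the outcome. Of the 97 genes past the limit in each strain, 84 were past it in both. Peaks there thus had more of the other strain's regions to meet. In genes past the 50% limit, 19.5% of 164 B6 peaks and 14.8% of 162 KI peaks met no region of the other strain. In genes below it, 51.2% of 248 B6 peaks (interval 45.0 to 57.4%) and 51.4% of 288 KI peaks (45.6 to 57.1%) met none. Peaks that overlapped one of the other strain had a median width of 330 bp (B6) and 398 bp (KI), and the rest one of 308 and 296.5 bp. A wider peak meets another more easily, so these widths are a description too.

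Single peaks show the range. Among KI peaks in lincRNA genes that met no B6 region, the widest, 1792 bp, lies in an intron of Gm16630 (chr6:48080917-48345407, minus strand), and the next, 1587 bp, spans the end of Gm17694 (chr9:88753849-88778392, plus strand). The widest stretch common to peaks of both strains, 1939 bp, lies in Snhg1 (chr19:8797986-8800932, plus strand), whose B6 peak is 1939 bp and KI peak 2353 bp wide. Of the 132 genes with refined peaks in both strains, 72 (54.5%) had a B6 and a KI peak that overlapped.

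Many refined peaks sat in a few long genes. Ttc28, protein_coding in RefSeq, had 20 in B6 and 35 in KI, and 2610035D17Rik had 27 and 21. 2610307P16Rik (chr13:28551903-28977489, minus strand), the longest lincRNA gene, had 23 in B6 and 9 in KI, of which 4 in each strain overlapped a peak of the other and 19 and 5 met no region of the other strain. 4933406I18Rik, a testis clone head to head with Pde3b, had 13 in each strain.

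Between the strains most lincRNA genes had like coverage, 235 of the 496 being at 0 in both, and a minority had large differences. Of the 261 genes covered in either strain, 104 had the higher share in KI, 98 in B6 and 59 had equal shares. A share higher in KI by 25 percentage points or more was found for 22 lincRNA genes (4.44%), against 2.34% of all autosomal genes, and one higher in B6 by as much for 30 (6.05%), against 3.36%. These percentages also count the genes at 0 in both strains. Of the 34653 autosomal genes, 18372 were covered in either strain. Across genes the rank correlation of the 2 strains was 0.78 over the 496 lincRNA genes and 0.93 over 21418 protein-coding genes, as a description only, since genes of 1 list share its reads and its caller. The Sertoli cell markers named above were also higher in B6, by as much as 71.7% against 8.49% for Wt1, and their part in the B6-higher genes was not tested.

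The genes past the limit in 1 strain only were in part empty in the other. Of the 13 B6-only genes 4 were at 0 in KI, and the median share in KI was 24.4%. Of the 13 KI-only genes 6 were at 0 in B6, and the median share in B6 was 19.3%.

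The genes of at least 5 kb with the largest differences were chosen by those differences and are given as a description. Toward KI they were Gm17392 (chr17:55696464-55702805, plus strand) with 0% in B6 and 71.0% in KI, Gm16598 with 0 and 46.4%, E030007J07Rik with 0 and 44.0%, Gm17733 with 19.3 and 61.1%, and Gm17694 with 0 and 40.3%. Gm17392 had 1 refined peak in KI, which met no B6 region, and lies 28.8 kb from Vmn2r118, itself at 0 in both strains. Gm16598 and Gm17733 are head to head with Rad18 at 90 bp and Syn2 at 129 bp, 2 genes covered in B6 over 93.3 and 63.4%.

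Toward B6 they were Gm16977 (chr9:117782262-117790320, plus strand) with 47.4% in B6 and 0 in KI, 4930500J02Rik with 85.6 and 40.8%, Gm16386 with 78.1 and 38.7%, C130036L24Rik with 38.7 and 0%, and Gm17719 with 37.1 and 0%. 4930500J02Rik, a testis clone, and Gm16386, a transcribed pseudogene in RefSeq, thus had long regions in both strains, 10.5 against 5.0 kb and 25.7 against 12.7 kb. The nearest protein-coding gene of each of these 5 genes was covered over 92.5 to 99.6% in B6. C130036L24Rik, for one, lies 118 bp head to head from Ncl (96.4% in both strains).

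**Figure D5:**
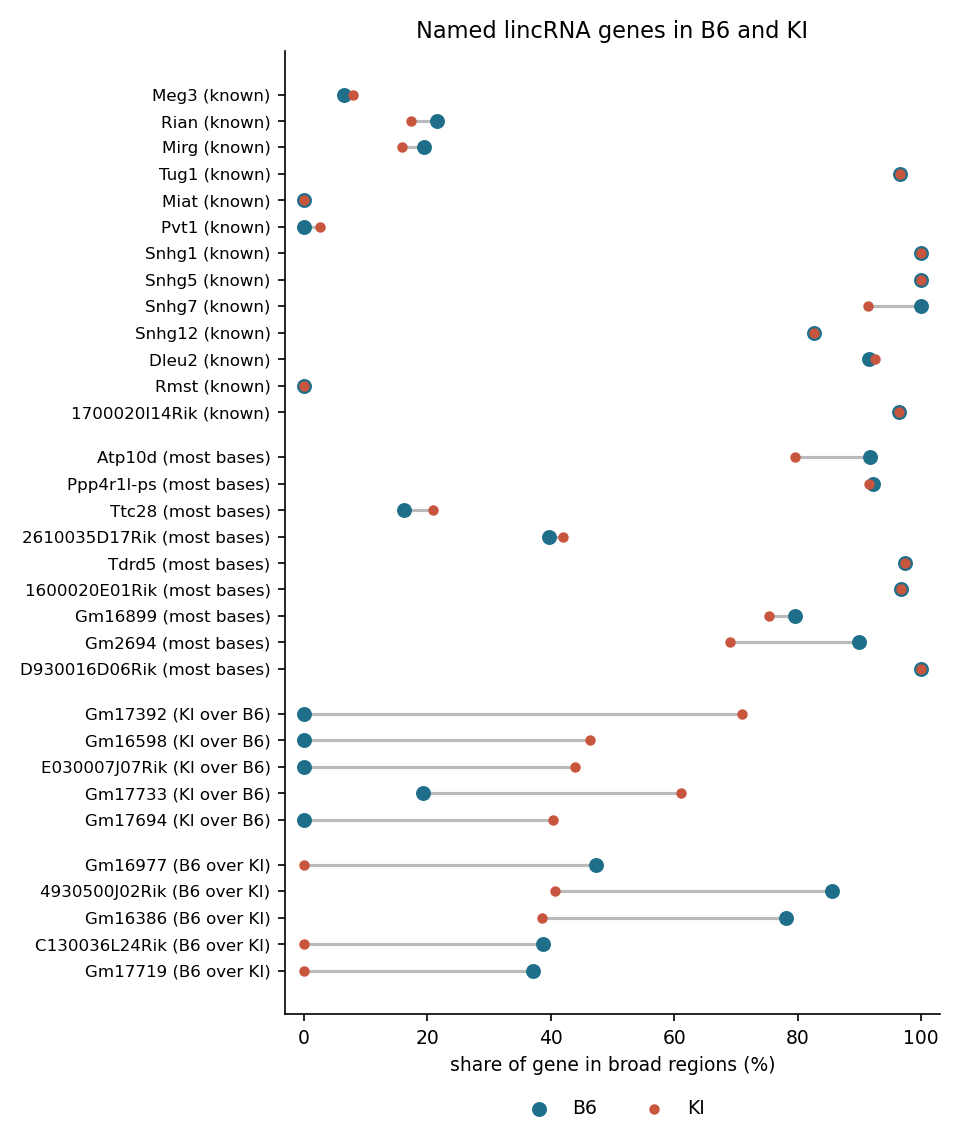
Each line is 1 named lincRNA gene with its share in broad regions (%) in B6 (large points) and KI (small points), grouped as known RNAs, genes with most bases covered, and the genes of at least 5 kb with the largest differences toward KI and toward B6. The known and most covered genes lie close together in the 2 strains, with the widest gap for Gm2694 (90% in B6 and 69.1% in KI), whereas 4 of the 5 genes toward KI are at 0 in B6 and 3 of the 5 toward B6 are at 0 in KI.

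Of the lincRNA genes that met the limit in both strains, 16 lie 5 kb or more from any protein-coding gene. Besides Tdrd5, which RefSeq lists as protein_coding, and Gm16899, Snhg5 and Dleu2 they include 9430008C03Rik, Gm17388 and Gm17605, each covered over 100% in both strains. 1300002E11Rik had 85.8% in B6 and 62.0% in KI, and 2810429I04Rik had 86.7 and 61.9%, the widest gaps in this set. Gm2885 had 53.2 and 54.1%. The testis clone 4933404O12Rik had 77.9 and 83.5%. These genes were listed after their values were seen.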

How the data were processed

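The authors trimmed the reads, aligned them to mm9 with BWA 1.2.3, discarded reads without a unique position, pooled replicates within a strain and used ZINBA with the input as control to call broad and refined regions. The deposited files hold positions only, in no other unit. The inputs have no file used here. Repeated broad regions were counted once and overlapping ones merged, and positions were read as counted from 1. Coverage, overlaps and Wilson intervals were computed in Python 3.11.15 with numpy 2.4.6, pandas 2.3.3 and scipy 1.17.1, checked against bedtools 2.31.1 and tested on simulated data. Sequence was read with samtools 1.23.1 and figures were drawn with matplotlib 3.10.9.

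The genes, gene lists and limits were chosen with earlier results of these data known. Named genes were a list of known RNAs, the 10 with most covered bases, the 5 with the largest difference toward each strain among genes of 5 kb or more, the 5 with most refined peaks, the 2 widest peaks per strain without a region of the other and the 3 widest shared peaks. Antisense genes, planned as a comparison, are no gene type of this annotation, and processed_transcript genes were used instead. The widest B6 peaks without a KI region are not reported here. Alternatives for genes, limits and overlaps are given in the closing section.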

Additional observations from a re-analysis of the deposited data

How the results depend on the processing

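No paired analysis was possible because each strain has 1 list called on merged replicates, and for the same reason no replicate could be left out. Of 120 values under an alternative, 81 moved by less than their spread or less than 1.5 times and 39 by more. Counts of genes were compared as counts, so an alternative that keeps fewer of the 496 genes lowers them by its size alone. Among the 217 genes beyond 5 kb from protein-coding genes, those past the limit were 22 in B6, 21 in KI and 16 in both, with 6 and 5 in 1 strain only. Genes with a refined peak were then 58, 64 and 41, densities 27.7 and 30.7 per Mb, overlapping peaks 19.7 and 17.8%, and peaks meeting no region 44.4 and 45.7%. The 319 genes of at least 5 kb gave 47, 46 and 40, with 7 and 6 in 1 strain only. A limit of 25% gave 146 in B6 and 30 and 22 in 1 strain only, and one of 90% gave 33, 34 and 29, with 4 and 5. Exons in place of the gene gave 89, 81 and 50 genes with a refined peak and 21 B6-only genes past the limit. Without regions touching protein-coding genes, 55 genes met the limit in both strains. Overlap of 50% of the shorter peak gave 16.5 and 14.9% of peaks shared, and a distance of up to 500 bp gave 39.3 and 34.2%. With the 309 RefSeq lncRNA genes alone, an alternative chosen after seeing the data, 8 and 6 genes met the limit in 1 strain only and B6 density was 39.9 per Mb. Apart from the smaller number of genes, the cause of these moves was not tested. No depth is known, so a gene at 0 is a gene without a called region, not one shown to lack the mark.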

Other observations

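Coverage of lincRNA genes varied among the 19 autosomes. On chromosome 9, 9 of 26 lincRNA genes in B6 and 8 in KI were covered over at least 50%, and on chromosome 5 it was 10 and 11 of 31. On chromosome 13 it was 2 of 30 in each strain, and on chromosome 15 it was 2 of 25 in B6 and 0 in KI. With so few genes per chromosome the Wilson intervals are wide, 19.4 to 53.8% for chromosome 9 in B6 and 1.85 to 21.3% for chromosome 13, and they were not tested against each other.

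Exon number showed no steady order. Of lincRNA genes with 2 exons 15.9% in B6 and 18.3% in KI met the limit, with 3 or 4 exons 24.4 and 22.2%, and with 5 or more 17.3 and 16.4%, although median length went from 3933.5 to 29424.5 bp.

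The 13 lincRNA genes that RefSeq lists as protein_coding were of both kinds. Tdrd5 and D930016D06Rik were covered over 97.3 and 100% in both strains, whereas Nlrc5, Lactbl1 and Fam150a were at 0 in both.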
